A study of Mus musculus with 8 samples.

Results

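Nr1i3, which encodes the constitutive androstane receptor (CAR), was examined in QUAD muscle together with the genes of its partners and relatives, the retinoid X receptors Rxra, Rxrb and Rxrg and the peroxisome proliferator-activated receptors Ppard and Pparg. The members were found by gene symbol, and all 6 symbols were present among the 12171 genes of the count table. Nr1i3 was chosen by its log2 fold change between the groups in these same libraries, and the others were taken with it as its known partners and relatives. The differences of the 6 genes between the groups are therefore given as descriptions with standard errors (SE) and without tests.

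Libraries came from 8 mice, 4 of the D-gal + PBS group and 4 of the D-gal + MSCs group, with 1 library per mouse. All were male C57BL/6J mice that arrived at 6 weeks of age and were given D-gal, a sugar used to induce features of ageing, under the skin at 100 mg/kg daily for 12 weeks. D-gal + MSCs mice had human mesenchymal stromal cells from the umbilical cord injected into the hind limb muscles, the sequenced QUAD among them, at 1000000 cells per mouse every 7 days for 6 cycles, and D-gal + PBS mice had PBS alone. Mice without D-gal are not among these libraries, and the human cells still present in the muscle were not measured here.

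CAR belongs to the nuclear receptors, transcription factors that bind small molecules and DNA. It is best known from the liver, where it switches on genes that clear drugs and bilirubin. CAR and the PPARs bind DNA as pairs with an RXR, so the RXRs are shared between these pathways. In skeletal muscle PPARδ, the product of Ppard, is known for its part in fatty acid oxidation, while PPARγ, the product of Pparg, is the main regulator of fat cells.

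Nr1i3 lies on chromosome 1 and has 8 annotated transcripts in GENCODE vM21 (build GRCm38). On the opposite strand lies Tomm40l, a relative of the channel protein of the outer mitochondrial membrane. Of the 1414 exonic bases of the Nr1i3 transcript with the longest coding sequence, 936 (66.2%) lie inside exons of Tomm40l. The window around the Nr1i3 start, 250 bases before to 50 after it, lies upstream of that overlap and is shown here because Nr1i3 carries the difference between the groups. It is RefSeq sequence of GRCm38.p6, chr1:171213720-171214019, plus strand.
Nr1i3 start: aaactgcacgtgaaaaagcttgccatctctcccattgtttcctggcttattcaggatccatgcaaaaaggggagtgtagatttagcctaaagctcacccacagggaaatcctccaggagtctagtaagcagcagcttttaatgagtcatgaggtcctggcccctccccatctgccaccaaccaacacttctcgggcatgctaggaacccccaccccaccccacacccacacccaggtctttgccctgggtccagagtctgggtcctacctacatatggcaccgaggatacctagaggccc
No letters are in capitals because the searched motifs, on both strands, were not found in this window. These were the nuclear receptor element AGGTCA, present in 16.3% of all 32851 windows of this kind, its direct repeats with 1 base between the copies (DR1, 0.0396%) and with 4 bases between them (DR4, 0.0152%), the E-box form CAGCTG (16.3%) and the TATA box TATAAA (13.6%). Other forms of the E-box were not searched, and the window holds several of them, such as cacgtg near its beginning and catatg near its end. The repeats contain the single element, so their matches overlap with it. The table held 11 windows for the 6 genes.

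The coding sequences of the receptors resemble each other most where they encode the DNA-binding and ligand-binding parts, so the runs of identical bases were measured. They are shown as a measure of this likeness, and the assignment of reads between these genes was not tested. Capitals mark the bases that Nr1i3 shares with Rxrb as well.
Nr1i3 and Rxra: ttgtGAGGGCTGCAAGGGcttcttca
Rxra and Rxrb: ctggagcacctgttcttcttcaagctcat
Rxra and Rxrg: catgggcatgaagcgggaagctgtgca
Among the 15 pairs the longest run was 29 bases, in Rxra and Rxrb, and the run of Nr1i3 with Rxra was 26 bases. Ppard and Pparg shared at most 17 bases.

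The raw counts of Nr1i3 were 2, 2, 10 and 4 in D-gal + PBS replicates 1 to 4. They were 111, 41, 77 and 93 in D-gal + MSCs replicates 1 to 4. All D-gal + MSCs mice lay above all D-gal + PBS mice, and the lowest of them had 4.1 times the counts of the highest D-gal + PBS mouse. Over all genes 6.28% did not overlap between the groups, 3.09% being higher and 3.19% lower with MSCs, and nothing is read from that share for a gene picked for this contrast.

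Total counts per library were 34912348 to 39356399 in D-gal + PBS mice and 32772221 to 40057968 in D-gal + MSCs mice. Scaled to the library by TMM factors, which correct for composition, Nr1i3 had 0.115 ± 0.0929 CPM (counts per 1000000, mean ± SD, n = 4) with PBS and 2.46 ± 0.966 CPM (SD, n = 4) with MSCs. The log2 fold change, D-gal + MSCs over D-gal + PBS, was 4.37 (SE 0.57) in edgeR. It is the 4th largest of all 12171 genes. Summed over the mice, 322 counts stood against 18, a ratio of 20.9 per scaled library total with an exact 95% interval of 13.0 to 35.7. This interval covers counting error only and not the spread between mice.

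The size of the Nr1i3 difference rests on few counts in D-gal + PBS mice. Without D-gal + PBS replicate 3, which holds 10 of the 18 counts, the log2 fold change was 5.08, a fold of 33.8 in place of 20.7. With any other single library left out it lay between 4.14 and 4.59. In D-gal + MSCs mice the highest CPM was 2.85 times the lowest, and the lowest was that of replicate 2.

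The count table holds only genes with at least 1 CPM, on library totals, in at least 4 libraries. Nr1i3 met this in all 4 D-gal + MSCs libraries and in 0 D-gal + PBS libraries. A gene that enters the table in this way has to differ between the groups. It is 1 of 4 such genes (0.0329% of the table), and 10 genes entered through the D-gal + PBS libraries alone (0.0822%).

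Tomm40l, which could contribute reads to Nr1i3 where the exons overlap, had 1837, 1561, 1479 and 2218 raw counts in D-gal + PBS replicates 1 to 4. It had 1565, 1487, 1721 and 1890 in D-gal + MSCs replicates 1 to 4. The groups overlapped, and the log2 fold change of Tomm40l was 0.17 (SE 0.21, edgeR adjusted p = 0.806). It turned to -0.027 under scaling by library totals alone. For each 1000 counts of Tomm40l there were 1.09 to 6.76 counts of Nr1i3 in D-gal + PBS mice and 27.6 to 70.9 in D-gal + MSCs mice. The strand setting of the counting is not given in the sources used here. Reads of both genes in the shared exons cannot be told apart without strand.

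**Figure D1:**
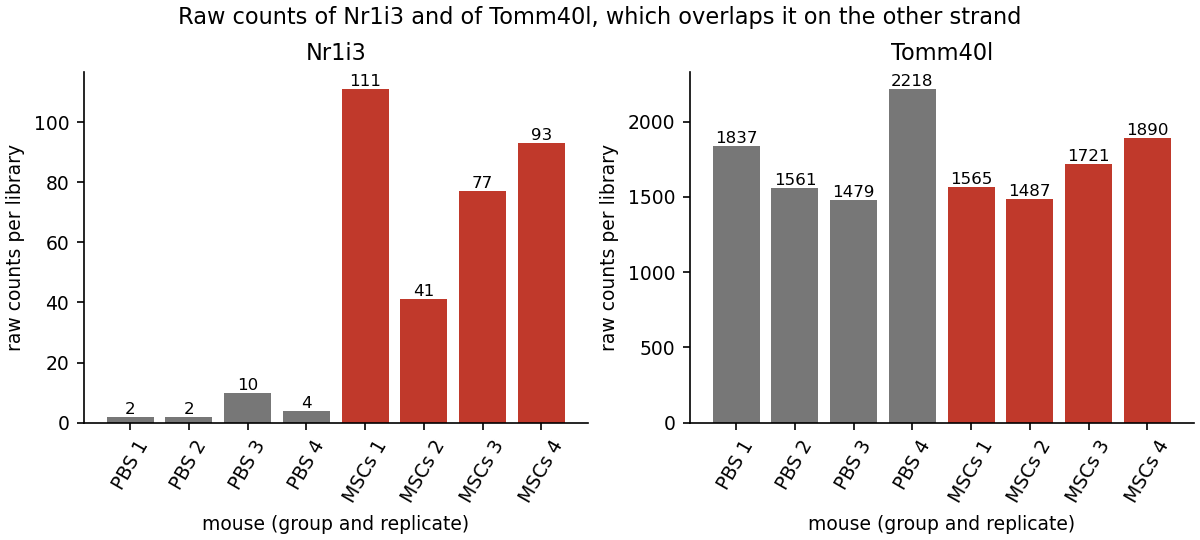
Raw counts per library of Nr1i3 (left) and of Tomm40l (right), with 1 bar per mouse, grey for D-gal + PBS and red for D-gal + MSCs. Nr1i3 has 2 to 10 counts in D-gal + PBS mice and 41 to 111 in D-gal + MSCs mice, while Tomm40l has 1479 to 2218 and 1487 to 1890.

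Genes near Nr1i3 on chromosome 1, in the RefSeq order (GRCm38.p6), had smaller differences. Pcp4l1 and Sdhc, a subunit of complex II, lie on one side and had log2 fold changes of 0.33 (SE 0.26) and 0.34 (SE 0.21). On the side of Tomm40l lies Fcer1g, an immune receptor chain, which had -0.999 (SE 0.37, edgeR adjusted p = 0.374). These 4 genes, Tomm40l included, overlapped between the groups. In edgeR 0 of them passed an adjusted p under 0.05 and 1, Fcer1g, had an unadjusted p under 0.05, while DESeq2 also called 0. Without D-gal + MSCs replicates 3 and 4 the values of Pcp4l1 and Sdhc were -0.18 and -0.10. Of 9 measured macrophage markers 8 also had negative log2 fold changes and 1 a positive one, with a median of -0.68, beside 49.5% positive over all genes. At the study's thresholds, with p under 0.05 before adjustment and a log2 fold change of 0.5 or more in size, D-gal + MSCs mice had 3.76% of all genes higher and 3.06% lower, and 3 of these markers, Mrc1, Cd163 and Lyz2, were lower. Their summed level was 103 to 165 CPM in D-gal + PBS mice and 59.8 to 149.6 CPM in D-gal + MSCs mice, and its part in the value of Fcer1g was not tested. Without D-gal + PBS replicate 1 Fcer1g had -0.67.

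In the liver CAR acts with a set of known target genes, and 12 of 30 listed ones were measured here. The other 18, among them Cyp2b10, the marker gene of CAR activity in mouse liver, were not analysed here. At the study's thresholds 1 target was higher (Gadd45b), beside 3.76% of all genes, 1 was lower (Gstt1), beside 3.06%, and 10 did not pass. The median log2 fold change of the 12 was 0.086, beside -0.0030 over all genes. It was -0.11 under scaling by library totals alone and -0.067 without D-gal + MSCs replicates 3 and 4.

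Gadd45b, a stress-induced gene of growth arrest and DNA damage that CAR is known to induce in mouse liver, had 24.1, 7.59, 17.1 and 15.4 CPM in D-gal + PBS replicates 1 to 4. It had 47.0, 29.7, 33.2 and 46.6 CPM in D-gal + MSCs replicates 1 to 4. The groups did not overlap, which held for 1 of the 12 targets on the higher side, beside 3.09% of all genes. Replicate 1 of D-gal + MSCs was the highest for Gadd45b while replicate 4 was the highest for Nr1i3 in CPM. The log2 fold change of Gadd45b was 1.29 (SE 0.31), and its adjusted p was 0.186 in edgeR and 0.00169 in DESeq2. The glutathione transferases Gstt1, Gstm2 and Gstm1, enzymes that conjugate reactive compounds, had log2 fold changes of -0.51 (SE 0.21), -0.39 (SE 0.14) and -0.29 (SE 0.16). Without replicate 1 or 2 of D-gal + PBS, or replicate 2 or 4 of D-gal + MSCs, 0 of the targets were lower at the study's thresholds. Gene counts of the Gstm family can share reads, since its members are close copies.

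Before it is activated CAR is held in the cytoplasm by a complex with heat shock protein 90 and Dnajc7, and EGFR signalling keeps it there. All 8 listed genes of this complex and its control were measured. Their median log2 fold change was -0.24, and 1 was lower at the study's thresholds, beside 3.06% of all genes, 0 were higher, beside 3.76%, and 7 did not pass. Egfr, the epidermal growth factor receptor, had 15.8 to 20.9 CPM in D-gal + PBS mice and 5.51 to 11.4 CPM in D-gal + MSCs mice, with no overlap. Its log2 fold change was -0.95 (SE 0.21), and its adjusted p was 0.145 in edgeR and 0.00508 in DESeq2. Ppp2r1a, the scaffold subunit of protein phosphatase 2A, also had no overlap, with a smaller log2 fold change of -0.16 (SE 0.10). Over all genes 3.19% were lower without overlap. Hsp90aa1 (-0.88, SE 0.45) and Ppp1r16a (-0.36, SE 0.21), a regulatory subunit of protein phosphatase 1, overlapped, and with D-gal + PBS replicate 4 left out they had -0.48 and -0.18.

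Since Nr1i3 is a gene of the liver, markers of hepatocytes were set beside it. Of 20 listed markers 4 were measured, Alb, Trf, Hp and Cyp2e1, and the others were not analysed here. Alb, which encodes serum albumin, had 25, 12, 85 and 26 raw counts in D-gal + PBS replicates 1 to 4 and 86, 112, 435 and 75 in D-gal + MSCs replicates 1 to 4. Scaled to the library the groups for Alb lay next to each other without overlap, with 2.11 CPM in the highest D-gal + PBS mouse and 2.14 CPM in the lowest D-gal + MSCs mouse. Its log2 fold change was 2.49 (SE 0.74), and its adjusted p was 0.261 in edgeR and 0.0053 in DESeq2. In CPM the D-gal + PBS mice ranked the same for Alb and Nr1i3, with replicate 2 lowest and then replicates 1, 4 and 3. For Nr1i3 replicates 1 and 2 both had 2 raw counts, so their order comes from the scaling alone, and replicate 4 had 4. Nothing is read from this match in rank. Among D-gal + MSCs mice the order differed, with Alb highest in replicate 3, at 12.9 CPM, and Nr1i3 highest in replicate 4. Without D-gal + MSCs replicate 3 the log2 fold change of Alb was 1.57, the lowest value with 1 library left out, and the highest was 3.28. Trf, Hp and Cyp2e1, for transferrin, haptoglobin and a cytochrome P450, were highest in D-gal + PBS replicate 2 and had log2 fold changes of -1.74, -2.25 and -2.34, Trf without overlap. With that mouse left out the values were -0.86 for Trf, -1.03 for Hp and 0.37 for Cyp2e1. The summed level of adipocyte markers was also highest in that mouse, at 715 CPM, and its part in these values was not tested. Of the 4 markers 1 was higher and 1 lower without overlap, beside 3.09% and 3.19% of all genes. The summed level of the 4 was 19.9 to 139 CPM in D-gal + PBS mice and 9.22 to 26.01 CPM in D-gal + MSCs mice. The part of other cell types in the Nr1i3 counts was not tested. In bulk muscle, fewer cells of a type and less RNA per cell cannot be told apart.

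The tissue label was checked against markers of skeletal muscle. All 11 listed genes, such as Ckm and Acta1, were measured, and their sum was 117702 to 151477 CPM in D-gal + PBS mice and 94421 to 121858 CPM in D-gal + MSCs mice.

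The RXR genes were far more abundant than Nr1i3 and had small differences between the groups. Rxra, the most widely expressed RXR, had 108, 138, 109 and 136 CPM in D-gal + PBS replicates 1 to 4 and 103, 129, 91.6 and 109 CPM in D-gal + MSCs replicates 1 to 4. The groups overlapped for Rxra, with a log2 fold change of -0.18 (SE 0.14). Rxrb, also expressed in most tissues, had 34.5, 45.3, 34.3 and 41.5 CPM in D-gal + PBS mice and 38.2, 40.5, 34.5 and 35.7 CPM in D-gal + MSCs mice. Rxrb overlapped as well and had a log2 fold change of -0.063 (SE 0.12), between -0.11 and 0.023 with each library left out.

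Rxrg, whose expression is largely confined to muscle, heart and brain, had 69.3, 78.4, 60.3 and 88.2 CPM in D-gal + PBS replicates 1 to 4. It had 54.4, 67.1, 46.1 and 56.5 CPM in D-gal + MSCs replicates 1 to 4. Its mean was 74.0 ± 11.98 CPM with PBS and 56.0 ± 8.65 CPM with MSCs (SD, n = 4 each). The groups overlapped through replicate 3 of D-gal + PBS and replicate 2 of D-gal + MSCs. The log2 fold change of Rxrg was -0.40 (SE 0.15), between -0.50 and -0.31 with each library left out, and -0.58 under scaling by library totals alone. That scaling also moved the median of all genes to -0.19.

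**Figure D2:**
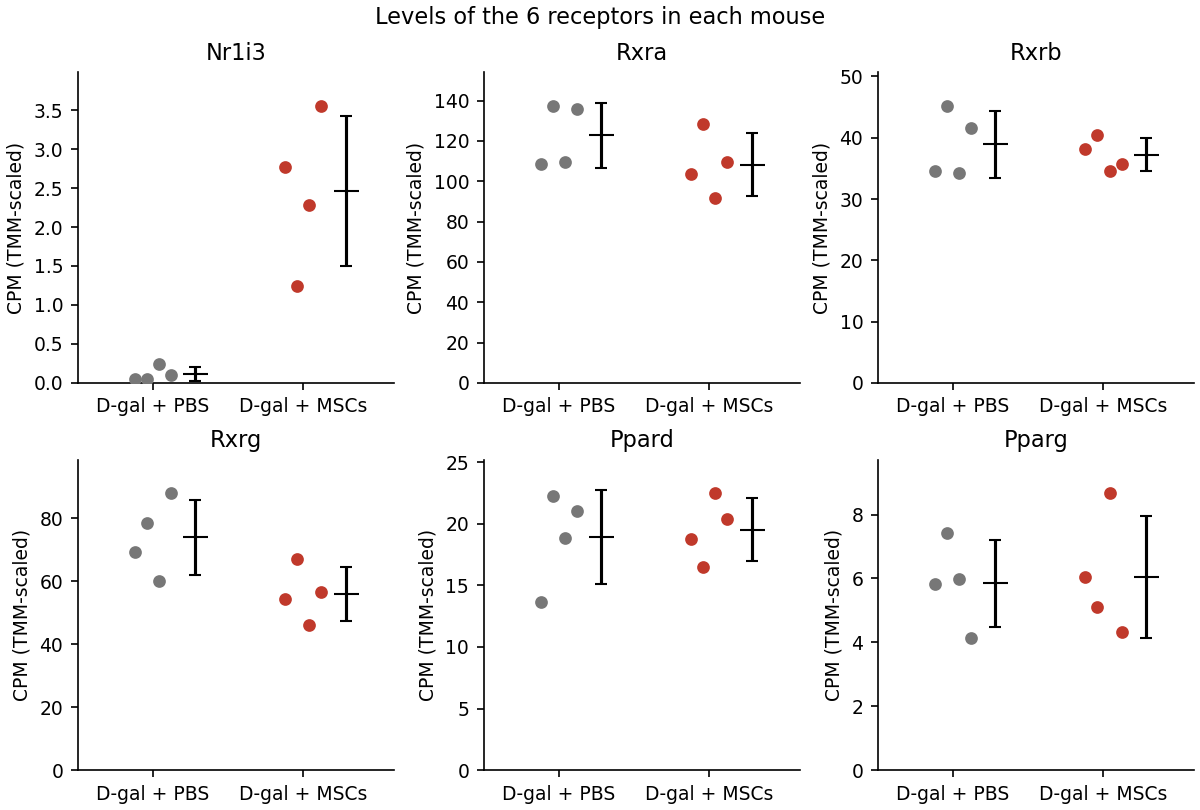
CPM of the 6 receptor genes, each in its own panel with an axis from 0. Points are mice, grey for D-gal + PBS and red for D-gal + MSCs, and the black bar beside them is the mean with its SD (n = 4). Nr1i3 is 0.115 against 2.46 CPM on average without overlap, and the other 5 genes overlap between the groups.

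Levels were compared between genes only per length, as CPM per kilobase (kb) of annotated exons in GENCODE vM21, which may differ from the annotation used for the counts. In D-gal + PBS mice Rxrg had 32.2 ± 5.22 CPM per kb (SD, n = 4), Rxra 22.5 ± 2.94, Rxrb 9.79 ± 1.36, Ppard 2.52 ± 0.509, Pparg 1.98 ± 0.457 and Nr1i3 0.026 ± 0.021. In D-gal + MSCs mice the order was the same, with 24.4 ± 3.77, 19.8 ± 2.82, 9.37 ± 0.672, 2.60 ± 0.339, 2.05 ± 0.642 and 0.558 ± 0.219 CPM per kb. Rxrg and Rxra overlapped in level among D-gal + MSCs mice, and Ppard and Pparg overlapped in both groups. On these lengths, the union of the exons of all transcripts of a gene, Nr1i3 was the lowest of the 6 in every mouse. The level of Rxra per kb was 355 to 2211 times that of Nr1i3 in D-gal + PBS mice and 24.8 to 83.2 times in D-gal + MSCs mice. The length used for Nr1i3 is 4414 bases, while its transcript with the longest coding sequence has 1414. A shorter length would raise Nr1i3 per kb, so its rank and these ratios depend on the choice of length.

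The share of each RXR gene in their summed level per kb does not depend on the scaling of the library. Rxrg took 51.4%, 48.3%, 47.8% and 52.1% in D-gal + PBS replicates 1 to 4 and 45.3%, 46.4%, 44.1% and 45.9% in D-gal + MSCs replicates 1 to 4. All D-gal + MSCs mice had a lower Rxrg share than all D-gal + PBS mice. Rxrb took 14.2% to 16.1% in D-gal + PBS mice and 16.2% to 19.1% in D-gal + MSCs mice, also without overlap, and Rxra took 33.7% to 36.5% and 36.3% to 37.4%, with overlap. The shares are parts of the same sum, so those of Rxrg and Rxrb are not separate results. Such shares were not computed for other genes, so no background stands beside this lack of overlap. In CPM Rxrg and Rxrb overlapped between the groups. The summed RXR level was 64.5 ± 9.12 CPM per kb with PBS and 53.6 ± 7.17 CPM per kb with MSCs (SD, n = 4 each).

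**Figure D3:**
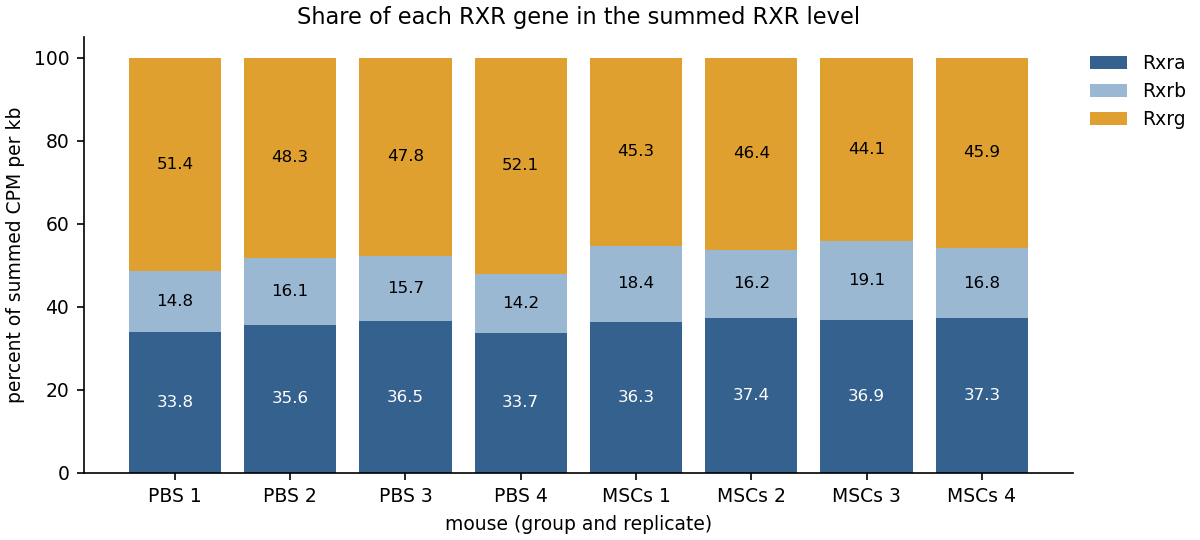
Percent of the summed RXR level (CPM per kb of exons) taken by Rxra, Rxrb and Rxrg in each mouse, as stacked bars with the percent written in each part. The Rxrg part is 47.8% to 52.1% in D-gal + PBS mice and 44.1% to 46.4% in D-gal + MSCs mice.

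The PPAR genes differed little on average. Ppard had 13.6, 22.3, 18.8 and 21.0 CPM in D-gal + PBS replicates 1 to 4 and 18.8, 16.5, 22.5 and 20.4 CPM in D-gal + MSCs replicates 1 to 4. Its log2 fold change was 0.045 (SE 0.17), and it turned to -0.14 under scaling by library totals alone. Pparg had 5.82, 7.44, 5.99 and 4.14 CPM in D-gal + PBS mice and 6.06, 5.12, 8.68 and 4.32 CPM in D-gal + MSCs mice. Its log2 fold change was 0.050 (SE 0.26), and -0.12 under library totals alone. With each library left out the value of Ppard was between -0.077 and 0.14 and that of Pparg between -0.18 and 0.19. The groups overlapped for both genes.

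Pparg is a gene of fat cells, so adipocyte markers were set beside it. Of 10 listed markers 9 were measured, and their sum was 291 to 715 CPM in D-gal + PBS mice and 302 to 522 CPM in D-gal + MSCs mice. Of the 9, 0 passed the study's thresholds, beside 3.76% of all genes higher and 3.06% lower. Of these markers 7 had a negative and 2 a positive log2 fold change, beside 49.5% positive over all genes, with a median of -1.93. Standard errors were large, such as 1.54 for Adipoq (-2.61) and 1.73 for Plin1 (-2.55). The sum was 715 CPM in D-gal + PBS replicate 2 and 291 to 421 CPM in the other D-gal + PBS mice. The median without that mouse was not computed. The part of fat in the level of Pparg was not tested. The annotated gene Gm44079 lies opposite Pparg, so its reads could not be told apart without strand either.

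**Figure D4:**
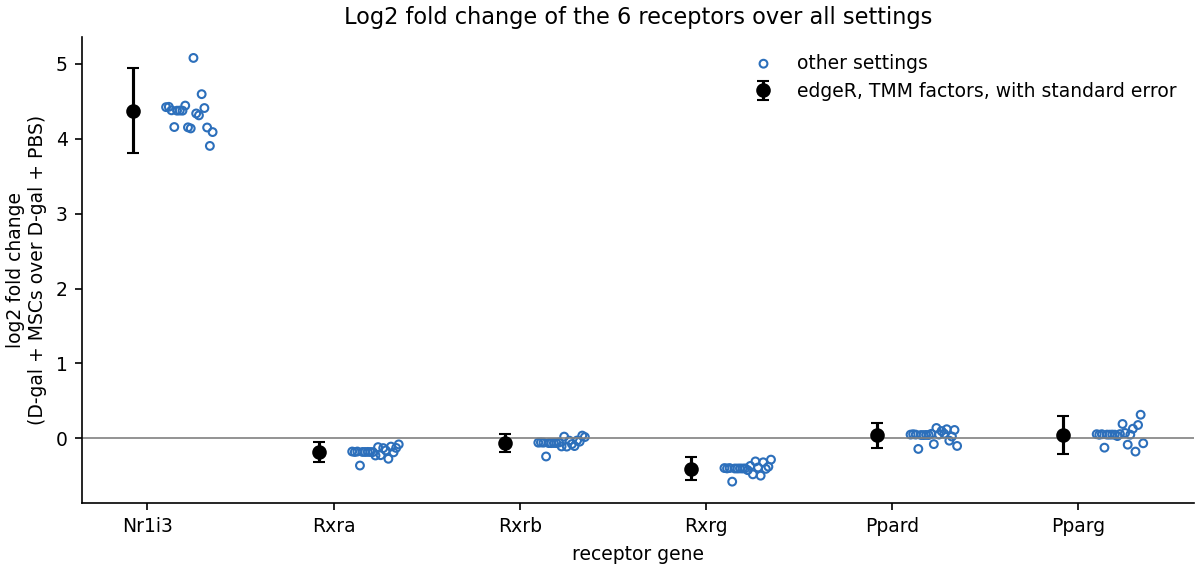
Log2 fold change (D-gal + MSCs over D-gal + PBS) of the 6 receptor genes. The black point is the edgeR value with its SE, and the open points are the other settings, such as DESeq2, other scalings and libraries left out. Nr1i3 stays between 3.90 and 5.08, and the lowest value of the other 5 genes is -0.58, that of Rxrg under library totals alone.

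Of the lists around the receptors, the PPAR targets had the most genes past the study's thresholds. All 31 listed targets were measured, and 28 had a positive log2 fold change, beside 49.5% of all genes. At the study's thresholds 15 of them were higher, beside 3.76% of all genes, and 0 lower, beside 3.06%, while 16 did not pass. The list had a median of 0.61 beside -0.0030 over all genes. In edgeR 0 of the 31 passed an adjusted p under 0.05, beside 0% of all genes, and 18 had an unadjusted p under 0.05, beside 10.7% of all genes. DESeq2 called 5 at an adjusted p under 0.05, beside 2.46% of all genes, and these were Acadl, Acadvl, Acsl1, Plin5 and Lpl. Many of these targets are enzymes of fatty acid oxidation, and the enrichment of PPAR signalling was already known from these libraries when the list was written.

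Lpl, which encodes lipoprotein lipase, had 277, 232, 244 and 278 CPM in D-gal + PBS replicates 1 to 4 and 473, 354, 667 and 1149 CPM in D-gal + MSCs replicates 1 to 4. Acsl1, an enzyme that links fatty acids to coenzyme A, had 193 to 215 CPM in D-gal + PBS mice and 260 to 580 CPM in D-gal + MSCs mice. Both were without overlap and highest in D-gal + MSCs replicate 4. Of the 31 targets 5 were higher without overlap, beside 3.09% of all genes. The targets given here were named for the smallest p of the list, so a lack of overlap in them follows in part from that choice. Ehhadh, a peroxisomal enzyme, had 5.82 to 8.09 CPM and 9.30 to 11.1 CPM, with a log2 fold change of 0.56 (SE 0.16, edgeR adjusted p = 0.231). Plin5, a protein of lipid droplets in muscle, had a log2 fold change of 1.45 (SE 0.41, edgeR adjusted p = 0.246). Targets with values below 0 included Cpt1a and Plin2, with log2 fold changes of -0.072 and -0.020, named after their values were seen.

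The PPAR targets were highest in the same 2 mice as the slow fibre markers, D-gal + MSCs replicates 3 and 4. Their mean log2 CPM, relative to the mean of the 8 mice, was -0.42, -0.35, -0.19 and -0.20 in D-gal + PBS replicates 1 to 4 and -0.13, -0.16, 0.47 and 0.99 in D-gal + MSCs replicates 1 to 4. The summed level of 8 slow fibre markers, such as Myh7 and Tnnt1, was 81.9 to 183 CPM in D-gal + PBS mice and 160, 75.2, 453 and 2726 CPM in D-gal + MSCs replicates 1 to 4. The share of counts from mitochondrially encoded genes was 13.9% to 18.6% in D-gal + PBS mice and 22.6% to 36.6% in D-gal + MSCs mice. The part of either in the result was not tested. With D-gal + MSCs replicate 4 left out the targets had a median of 0.31, with 6 higher at the study's thresholds. Without replicates 3 and 4, a choice made after seeing the data, it was 0.11, with 1 higher, and with D-gal + PBS replicate 2 dropped together with replicate 4 of D-gal + MSCs, chosen likewise, it was 0.27 with 2 higher. With 1 library left out, or other scaling, the number of higher targets was 8 without D-gal + MSCs replicate 3, 9 without D-gal + PBS replicate 2 and 9 under library totals alone. It rose in other settings, to 20 without D-gal + MSCs replicate 1, 20 without D-gal + MSCs replicate 2 and 19 in DESeq2. Without D-gal + MSCs replicates 3 and 4 the log2 fold change of Nr1i3 was 4.09.

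RXRs bind 9-cis retinoic acid, and 8 of 15 listed genes of retinoid transport and metabolism were measured. At the study's thresholds 1 was higher and 1 lower, beside 3.76% and 3.06% of all genes, with a median of -0.15. Cyp26b1, which degrades retinoic acid, had 9.40, 8.74, 1.71 and 0.743 CPM in D-gal + PBS replicates 1 to 4 and 25.7, 14.8, 58.5 and 8.84 CPM in D-gal + MSCs replicates 1 to 4. The groups overlapped, and the log2 fold change was 2.39 (SE 0.97, edgeR adjusted p = 0.452). With libraries left out singly, 0 genes of the list were higher at the study's thresholds except when it was replicate 1 of D-gal + PBS or replicate 4 of D-gal + MSCs. Rbp7, a cellular retinol-binding protein, had 13.2 to 21.1 CPM in D-gal + PBS mice and 3.10 to 13.9 CPM in D-gal + MSCs mice. The log2 fold change of Rbp7 was -1.39 (SE 0.42), and its adjusted p was 0.273 in edgeR and 0.0131 in DESeq2. Without D-gal + MSCs replicate 3, its highest mouse of that group, it was -2.01 and passed in edgeR (adjusted p = 0.0278). Aldh1a3 and Aldh1a1, which make retinoic acid, had log2 fold changes of -0.91 (SE 0.43) and 0.23 (SE 0.15).

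With the 6 receptors, 33 nuclear receptors were measured. Besides Nr1i3, 1 of the 33 did not overlap between the groups, beside 6.28% of all genes, and this was Nr4a3, with a log2 fold change of -2.09 (SE 0.49). Of 13 listed receptors that can also pair with RXR, 9 were measured. The other 4, among them Ppara, the gene of PPAR-α, were not analysed here. Of the 9, 2 were lower at the study's thresholds, Nr4a2 (-1.80, SE 0.42) and Nr4a1 (-0.95, SE 0.25), 0 were higher and 7 did not pass, beside 3.06% of all genes lower and 3.76% higher. The thyroid hormone receptor Thra (-0.20, SE 0.13) and the liver X receptor Nr1h2 (-0.16, SE 0.12) were among the 7. The median of the 9 was -0.16. Of 25 listed receptors outside the RXR partners 18 were measured, and 2 were higher, Esrrb (1.53, SE 0.54) and Esrrg (1.32, SE 0.39), estrogen-related receptors of oxidative metabolism, beside 3.76% of all genes, and Nr4a3 was lower, beside 3.06%. Esrrb had 2.99 and 3.20 CPM in D-gal + MSCs replicates 1 and 2, below the highest D-gal + PBS mouse at 3.66 CPM, and 11.7 and 13.7 CPM in replicates 3 and 4, the mice highest in slow fibre markers. Without replicates 3 and 4 the log2 fold changes were 0.19 for Esrrb and 0.84 for Esrrg, and 0 of the 18 were higher at the study's thresholds, with 1 higher when either was dropped alone. Nr2f6 had -0.38 (SE 0.14). Of the 9 and the 18, edgeR called 0 at an adjusted p under 0.05, beside 0% of all genes, while DESeq2 called Nr4a1, Nr4a2, Nr4a3, Esrrb and Esrrg, beside 2.46% of all genes.

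Coregulators carry the signal of the bound receptors to transcription, and 18 of 19 listed ones were measured. Their median log2 fold change was 0.031, and 1 was higher and 0 lower, with 17 that did not pass, at the study's thresholds, beside 3.76% of all genes higher and 3.06% lower. The higher one was Ppargc1b, a relative of PGC-1α, with 1.43 ± 0.280 CPM with PBS and 2.74 ± 1.29 CPM with MSCs (SD, n = 4 each) (log2 fold change 0.93, SE 0.37, edgeR adjusted p = 0.411). Without D-gal + MSCs replicates 3 and 4 the value was 0.28, and 0 coregulators were higher, as was so without either of them or without D-gal + PBS replicate 1 or 4. The corepressor Ncor1 and its deacetylase Hdac3 had values of 0.26 (SE 0.12) and -0.26 (SE 0.12), and Med1, a mediator subunit, had 0.20 (SE 0.12). Ppargc1a, which encodes PGC-1α, was among the 17 and had 0.077 (SE 0.21), named after its value was seen.

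**Figure D5:**
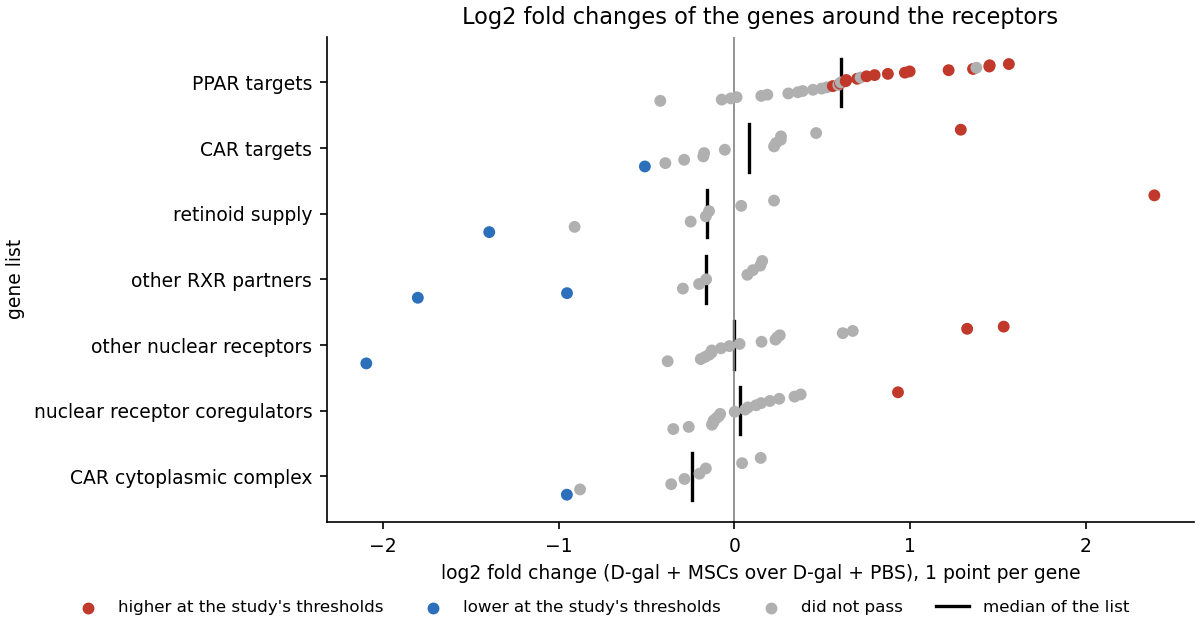
Log2 fold change (D-gal + MSCs over D-gal + PBS) of each measured gene of 7 lists around the receptors, with 1 point per gene and a black line at the median. Red and blue points are higher and lower at the study's thresholds. The PPAR targets have 15 red points and a median of 0.61, and the other lists have 2 or fewer red points each.

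Genes with a pattern like that of each receptor were looked up by Pearson's r of log2 CPM over the 8 libraries, as a description. For Nr1i3 the closest were Tcaim (r = 0.98), Frat1 (r = 0.98), Nhlrc2 (r = 0.97), Lrrc2 (r = 0.97) and Enah (r = 0.95), where the difference between the groups is part of r. With the group means subtracted the closest to Nr1i3 were the assembled locus MSTRG.2620 (r = 0.99), Pde4c (r = 0.97), Adrm1b (r = 0.96), Upf2 (r = 0.96) and Endou (r = 0.96). Those values lean on the 2 to 10 counts of Nr1i3 in D-gal + PBS mice.

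Within the groups the RXR genes had positive r with each other across mice. After the group means were subtracted, Rxra had r = 0.93 with Rxrg and r = 0.88 with Rxrb over the 8 libraries, which share their scaling factors. Rxrb had r = 0.79 with Rxrg. Over all genes, 78 had r of at least 0.9 with Rxra, 46 with Rxrb and 84 with Rxrg. The median r over all genes was -0.0039, -0.014 and 0.0082. Rxra was closest to Eef2k, Chtop and Nek9 (r = 0.98 each), Rxrb to Fiz1 (r = 0.97), Lpin1 and Ints2 (r = 0.95 each), and Rxrg to Mettl21c (r = 0.99), Dnajb12 and Anapc5 (r = 0.98 each). Ppard was closest to Rhebl1 (r = 0.98), Tesc (r = 0.95) and Rhbdf1 (r = 0.94), and Pparg to Rtn4rl1 (r = 0.99), Col5a1 and Plscr3 (r = 0.98 each). On the same scale Nr1i3 had r = -0.53 with Rxrg, -0.53 with Rxrb, -0.47 with Rxra, -0.18 with Pparg and 0.33 with Ppard.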

How the data were processed

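RNA-seq of QUAD muscle gave 8 libraries from 2 groups of 4 mice. Values are raw counts per gene as deposited by the authors, who aligned reads to GRCm39 with HISAT2. Neither the counting tool nor its annotation and strand option is given in the sources used here. Columns of other samples numbered 0. Total counts per library, 32772221 to 40057968, limit the precision of low genes.

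Counts were analysed in R 4.3.3 with edgeR 4.0.16 (TMM factors 0.760 to 1.14, robust quasi-likelihood F test with group as the only term). The function filterByExpr removed 0 genes. P-values were adjusted over 12171 genes by the Benjamini-Hochberg method. The standard error is the log2 fold change divided by the square root of F. CPM use TMM-scaled totals, and log2 CPM a prior count of 2. The study's thresholds, read from its volcano plot, use an unadjusted p. The analysis was tested on simulated data.

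The receptors and the 13 gene lists were chosen with earlier results of these data known. Named genes are the receptors, the 4 genes of each functional list with the smallest p, the measured hepatocyte markers, the 3 nearest measured genes on each side of Nr1i3 and the genes of closest pattern. Some genes that this rule names are not reported here. Lists are described by counts and medians.

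Alternatives were DESeq2 1.42.0, limma-voom (limma 3.58.1), library totals alone, median-of-ratios factors, no filter, at least 10 counts in every library, a fit that was not robust, mitochondrially encoded genes left out, the replicate number as a block, and each library left out. Leaving out D-gal + PBS replicate 2 with D-gal + MSCs replicate 4, and D-gal + MSCs replicates 3 and 4, was added after seeing the data. Promoter windows were matched by symbol. Coordinates of GRCm38 were not used with the counts.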

Additional observations from a re-analysis of the deposited data

Results flagged for a closer look

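In 4 of 84 groups of 4 mice 1 mouse stood apart from the others by Dixon's test, where chance gives about 1 in 20. Alb was 12.9 CPM in D-gal + MSCs replicate 3, with 3.41 CPM in the nearest mouse. In D-gal + PBS replicate 2 Trf was 76.3 CPM (nearest mouse 19.4), Hp was 16.6 CPM (nearest 3.93) and Cyp2e1 was 46.1 CPM (nearest 2.48). None of the 6 receptors was among them.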

How the results depend on the processing

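The 0 genes that edgeR called at an adjusted p under 0.05 became 300 in DESeq2, 7 with median-of-ratios factors, 7 with library totals alone, 6 with at least 10 counts in every library, 7 without mitochondrially encoded genes, 0 to 14 with each library left out (14 when D-gal + PBS replicate 1 was dropped, 13 when it was D-gal + MSCs replicate 3), and 14 when D-gal + MSCs replicates 3 and 4 both were. At the study's thresholds 831 genes, 458 higher and 373 lower, became 201 higher and 761 lower under library totals alone, 612 to 957 in all with each library left out and 535 with both D-gal + PBS replicate 2 and replicate 4 of D-gal + MSCs left out. With the replicate number as a block 78 genes were called. No label ties same-numbered mice, and the correlation of deviations between same-numbered mice was -0.003 to 0.218. The log2 fold change of Nr1i3 was 4.44 with the replicate block, and 4.14 to 5.08 with each library left out. It could not be fitted with at least 10 counts in every library, as Nr1i3 has fewer. Under library totals alone Rxrb was at -0.24, and the medians were -0.11 for CAR targets, -0.34 for other RXR partners, -0.21 for other nuclear receptors, -0.15 for coregulators and -0.42 for the CAR complex, while the median of all genes was -0.19. The median of other nuclear receptors was -0.043 to 0.15 with each library left out. Without D-gal + MSCs replicates 3 and 4 the medians of CAR and PPAR targets were -0.067 and 0.11. Signs turned for Tomm40l under library totals alone (-0.027), in the range of -0.028 to 0.32 with each library left out, and in the settings that left out D-gal + PBS replicate 2 with D-gal + MSCs replicate 4 (-0.10) or D-gal + MSCs replicates 3 and 4 (-0.12). They also turned for Cyp2e1 in its range of -2.78 to 0.37 with each library left out, the highest without D-gal + PBS replicate 2, and with D-gal + MSCs replicate 4 left out too (0.75), for Pcp4l1 in those 2 settings of paired omissions (-0.033 and -0.18) and for Sdhc in the last (-0.10). The cause was not tested. The 18 counts of Nr1i3 in all D-gal + PBS mice limit the precision of its fold change.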

Other observations

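Besides Nr1i3, the genes that reached 1 CPM in all D-gal + MSCs libraries and in 0 D-gal + PBS libraries were Cd40, Tesc and the assembled locus MSTRG.20357, named after their values were seen. Cd40, a costimulatory receptor of antigen-presenting cells, had 2 to 25 raw counts in D-gal + PBS mice and 37 to 49 in D-gal + MSCs mice, with a log2 fold change of 1.88 (standard error 0.58), while 8 of 9 measured macrophage markers had negative log2 fold changes. Tesc, which encodes the calcium-binding protein tescalcin, had 6 to 34 and 36 to 70 raw counts, with a log2 fold change of 1.75 (standard error 0.48).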
